A study of Mus musculus with 9 samples.

Results

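The genes described here are 10 members of the BCL2 family, the regulators of mitochondrial apoptosis, in mouse megakaryocyte-erythroid progenitors (MEPs). They were chosen by name, 1 gene identifier each out of 35275 in the count table, and comprise the anti-apoptotic genes Bcl2, Bcl2l1 and Mcl1, the effectors Bax and Bak1, and the BH3-only genes Bcl2l11, Bbc3, Pmaip1, Bid and Bad. All 10 were found. MEPs (Lin-ckit+CD34-FcγRII/IIIlo) of mouse bone marrow had been sorted by how strongly they bound HS3A8, a single-chain antibody fragment (scFv) against heparan sulfate (HS), the sulfated glycan of cell surface proteoglycans. The sort split them at the middle of HS3A8 binding, with the upper 50% as HS3A8-high and the lower 50% as HS3A8-low. The control is total MEPs, mock-sorted with the scFv MPB49, which lacks HS binding. Each of these 3 groups has 3 bulk RNA-seq libraries of 25000 cells. The study states an age of 6 to 12 weeks for its mice, and no mutation, transgene or drug treatment is given for these libraries. The methods list wild-type C57Bl/6 mice without tying a strain to these libraries, and HS3A8 staining was part of both sorted fractions but not of the control.

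Mitochondrial apoptosis begins when the effectors BAX and BAK open pores in the outer mitochondrial membrane and cytochrome c escapes. Anti-apoptotic members hold the effectors and BH3-only proteins in check, and BH3-only proteins, made or activated under stress or loss of cytokines, release that brake. In blood formation MCL1 is required by stem cells and early progenitors, and BCL-XL, the product of Bcl2l1, is known for keeping maturing erythroid cells and platelets alive.

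Promoter sequences are shown for Bcl2, Bcl2l1 and Bbc3, the 3 members that differed between HS3A8-high and HS3A8-low MEPs by at least 1 of the tools used here. Each is the 250 bases before a RefSeq transcription start on GRCm38.p6, written 5′ to 3′ in the direction of the gene, and capitals mark the GC box GGGCGG, the core bound by SP and KLF factors, or its complement. The stretches are chr1:106714291-106714540 on the minus strand, chr2:152831729-152831978 on the minus strand and chr7:16309333-16309582 on the plus strand.
Bcl2: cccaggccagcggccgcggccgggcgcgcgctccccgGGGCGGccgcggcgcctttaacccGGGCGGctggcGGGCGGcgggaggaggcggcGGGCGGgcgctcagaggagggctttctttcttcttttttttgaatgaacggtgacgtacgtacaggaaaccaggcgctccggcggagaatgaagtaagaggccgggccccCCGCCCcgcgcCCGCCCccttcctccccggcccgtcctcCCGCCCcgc
Bcl2l1: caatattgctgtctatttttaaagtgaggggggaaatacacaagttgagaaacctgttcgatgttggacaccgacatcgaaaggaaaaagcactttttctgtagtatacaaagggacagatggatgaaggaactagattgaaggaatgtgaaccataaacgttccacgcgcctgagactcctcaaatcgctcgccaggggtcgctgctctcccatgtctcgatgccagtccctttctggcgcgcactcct
Bbc3: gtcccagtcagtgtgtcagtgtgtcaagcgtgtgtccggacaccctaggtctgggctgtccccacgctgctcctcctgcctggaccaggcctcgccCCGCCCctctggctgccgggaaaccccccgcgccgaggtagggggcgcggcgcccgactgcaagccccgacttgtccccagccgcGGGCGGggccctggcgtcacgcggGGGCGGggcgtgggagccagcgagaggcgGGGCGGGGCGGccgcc
The Bcl2 stretch held 7 GC boxes and the Bbc3 stretch 5, of which the last pair share 1 base, while the Bcl2l1 stretch held 0. At least 1 GC box was found in 32.7% of the 32851 RefSeq stretches of this length. Members that no tool called between the fractions had GC boxes too. Their stretches held 3 and 0 for Bad, 2 for Bax, 3 and 2 for Bcl2l11, 3 for Bid, 1 for Mcl1 and 0 for Bak1. Both strands were also searched for AGATAA or TGATAA (bound by GATA factors, in 16.6% of all stretches), CCGGAA (ETS, 12%), TTCNNNGAA (STAT, 7.02%) and TGTGGT (RUNX, 14%), and none of these was in the 3 stretches printed. A stretch before another RefSeq start of Bcl2l1 (chr2:152828490-152828739) held 1 GATA match. G and C made up 74.8% of the Bcl2, 76.4% of the Bbc3 and 47.6% of the Bcl2l1 stretch, against a median of 52.4%. They made up 72 and 73.2% of the stretches of Bcl2l11, which was not called. These matches are descriptions of letters and not binding sites. Bcl2l1 and Bbc3 have further RefSeq starts, and the one nearest to the annotated beginning of the gene was taken.

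Total counts ran from 11781637 to 15850037 per library, so that a count of 0 allows up to 3 counts, or 0.189 to 0.255 CPM, counting error only. CPM are counts scaled to a common library size, here by TMM over all 9 libraries. Groups were compared with the quasi-likelihood test of edgeR on all genes that passed its count filter, and p-values were adjusted by Benjamini-Hochberg over those genes. The gate and lineage markers were present, with 387 to 788 CPM of Kit and 354 to 513 CPM of Gata1. Cd34, whose protein the gate excludes, had 0.836 to 11 CPM in HS3A8-high and 28.2 to 74.5 in HS3A8-low. Replicate 3 of both fractions stood apart by granulocyte-monocyte markers, 13 genes that summed to 1961 and 5066 CPM there against 11.1 to 273 in the other 7 libraries. Genes of FcγRII/III, which the gate keeps low, were also highest in replicate 3 of HS3A8-high and HS3A8-low. Fcgr3 had 17.8 and 44.4 CPM and Fcgr2b 7.82 and 18.9 CPM there, against 0.147 to 2.94 CPM in the other 7 libraries. Replicate 1 of the MPB49 control stood apart from its group. A chi-square of the counts, divided by its degrees of freedom, was 196 and 150 against the other control libraries and 9.61 between those.

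Of the 10 members, Bcl2 was the only gene that differed between HS3A8-high and HS3A8-low MEPs in the edgeR test, where 3.82% of 11791 genes tested were called, 3.21% higher in HS3A8-low and 0.611% higher in HS3A8-high. Bcl2 (ENSMUSG00000057329, chromosome 1 of GRCm38 from 106538178 to 106714274) encodes the founding survival protein of the family. It had 6.46, 4.41 and 5.70 CPM in HS3A8-high replicates 1 to 3, 44.7, 23.2 and 24.1 CPM in HS3A8-low and 13.0, 14.4 and 11.1 CPM in the MPB49 control. Every HS3A8-low library was above every control library, every control library was above every HS3A8-high library, and HS3A8-low replicate 1 was the highest. Bcl2 fell 5.59-fold from HS3A8-low to HS3A8-high (log2 fold change -2.48, standard error 0.333, 95% confidence interval -3.27 to -1.69, edgeR adjusted p = 0.0196). Deviations from the group means ran together in same-numbered libraries of both fractions. With the replicate number as a block the log2 fold change was -2.44 (edgeR adjusted p = 0.00325), where 11.6% of genes were called, 8.27% higher in HS3A8-low and 3.32% higher in HS3A8-high. Within the numbers the log2 difference was -2.76, -2.36 and -2.05, lower in HS3A8-high in 3 of 3. Without HS3A8-high replicate 1, HS3A8-high replicate 2 or HS3A8-low replicate 2 the edgeR adjusted p of Bcl2 was 0.0782, 0.0861 and 0.0906, at log2 fold changes of -2.62, -2.33 and -2.63. Exons of D630008O14Rik on the opposite strand overlap 6.09% of the Bcl2 exons, and whether counting used the strand is not given in the sources used here.

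**Figure D1:**
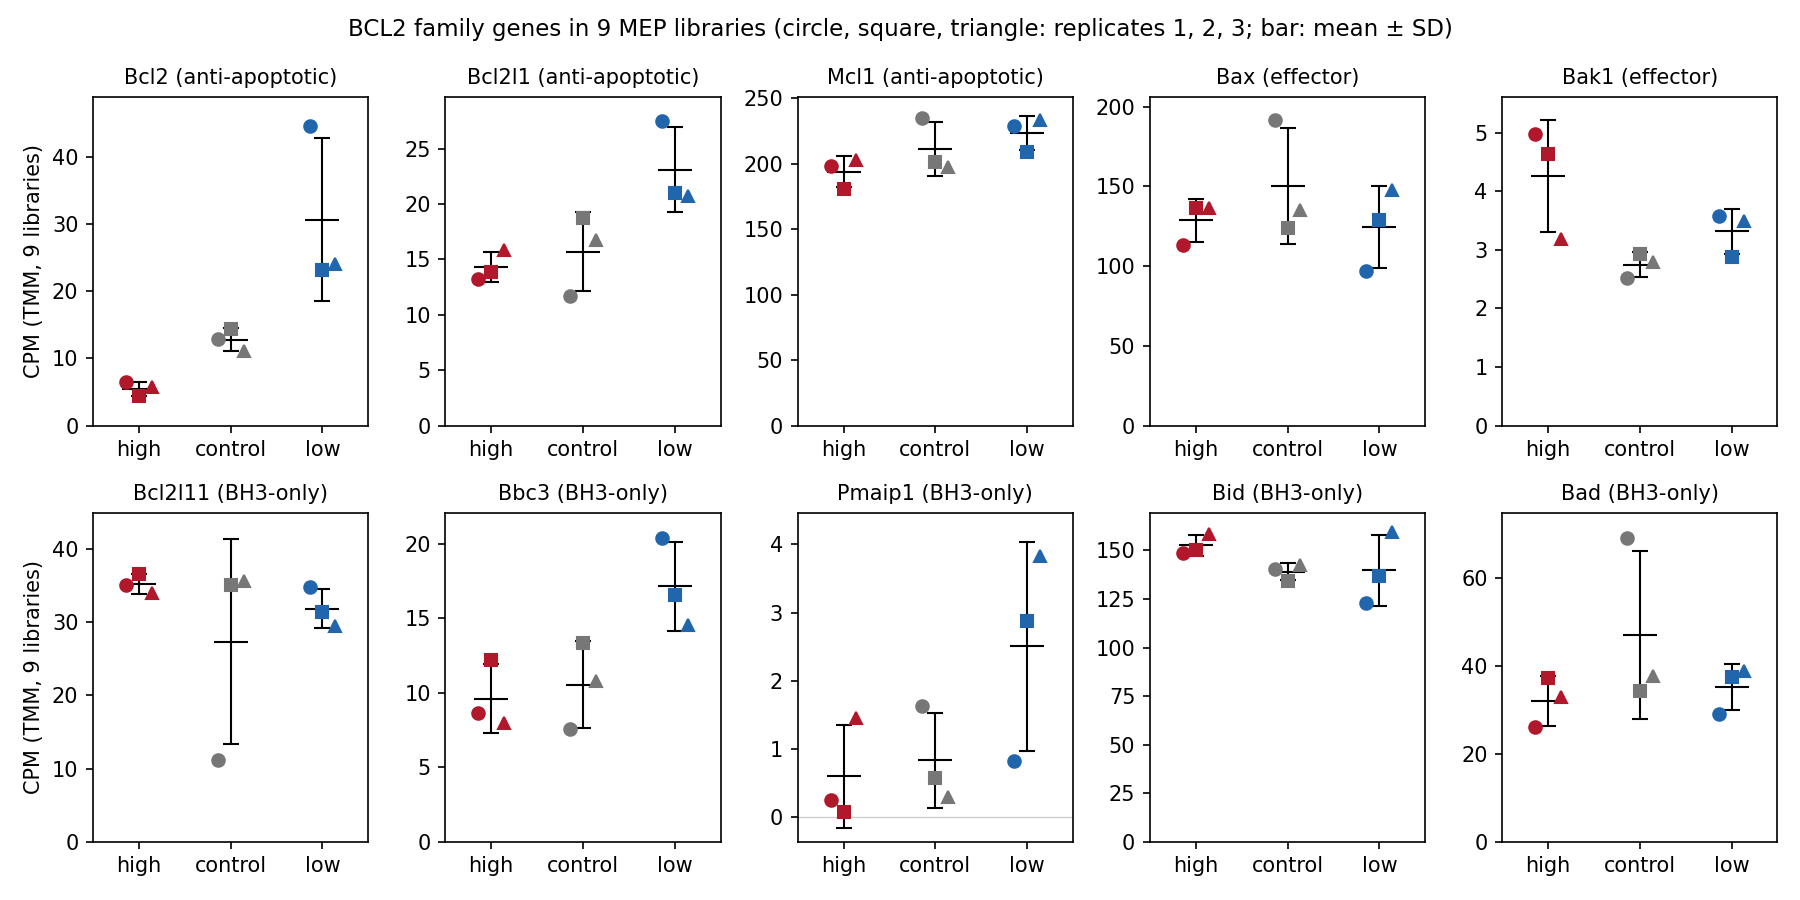
Level in CPM (TMM over 9 libraries, linear axes from 0 or below where an error bar reaches there) of each of the 10 genes in HS3A8-high, MPB49 control and HS3A8-low MEPs, with 1 point per library and bars for the mean ± SD (n = 3). The 3 groups are separate for Bcl2, from 4.41 to 6.46 CPM in HS3A8-high up to 23.2 to 44.7 CPM in HS3A8-low, while control replicate 1 lies far from the other control libraries for Bcl2l11, Bax and Bad.

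Markers of other cell types moved with Bcl2 between the fractions. The 11 T and NK cell markers summed to 4.26 to 32.5 CPM in HS3A8-high and 189.6 to 234 CPM in HS3A8-low, and 0 of the 11 had a higher mean in HS3A8-high. The one with the highest CPM, Nkg7, a granule gene of cytotoxic cells, had 3.80 to 25.7 CPM in HS3A8-high and 99.5 to 116 CPM in HS3A8-low. Tcf7, second to Nkg7 in every HS3A8-low library, had 0.304 to 1.06 CPM in HS3A8-high and 31.0 to 81.6 CPM in HS3A8-low. Of the defining T cell genes, Cd3e was at 0, 0 and 0.994 CPM in HS3A8-high and at 0.94, 1.73 and 1.19 CPM in HS3A8-low. Replicate 3 of HS3A8-high thus lay within HS3A8-low. Cd3d overlapped too, at 0, 0 and 0.994 CPM against 0.705, 1.08 and 4.25 CPM. Cd3g did not overlap, at 0, 0 and 0.464 CPM against 1.82, 0.935 and 1.02 CPM. Cd4 was at 0 in all 6 sorted libraries. The T cell receptor genes Trbc1 and Trbc2 were at 0.152 to 0.795 and 0 to 1.19 CPM in HS3A8-high against 22.0 to 25.1 and 4.5 to 6.47 CPM in HS3A8-low. Summed megakaryocyte markers were 42.3 to 64.4 CPM in HS3A8-high and 211 to 432 CPM in HS3A8-low, with 1 of 10 higher in HS3A8-high. For stem and multipotent progenitor markers, of which 1 of 10 was higher in HS3A8-high, the sums were 85.3 to 107 and 211 to 246 CPM. The sums of the 9 B-lymphoid markers were 3.12 to 40.8 and 43.6 to 116 CPM, 0 of them higher in HS3A8-high, with Pax5 and Ms4a1 at 0 in all 9 libraries, Ighm at 1.75 to 35.5 and 33.5 to 102 CPM, and Cd79b at 0.559 to 3.38 and 7.64 to 10.2 CPM. Those of the 7 basophil and mast cell markers were 141 to 213 and 328 to 427 CPM, again with 0 higher in HS3A8-high. Most of each sum was Gata2, at 132 to 146 CPM in HS3A8-high and 200 to 406 CPM in HS3A8-low. Cpa3 had 0.311 to 4.44 and 17.6 to 23.3 CPM. Mcpt8, Prss34 and Fcer1a were at 0 to 0.216 CPM in replicates 1 and 2 of both fractions, and at 4.44 to 75.6 CPM in replicate 3. Erythroid markers lay the other way, at 14809.6 to 15924 CPM in HS3A8-high and 11469.7 to 13094 CPM in HS3A8-low, with 8 of 12 higher in HS3A8-high. The part of these cells in the Bcl2 difference was not tested, and in bulk libraries fewer cells of a type cannot be told apart from less RNA per cell. The 13 granulocyte-monocyte markers also had lower means in HS3A8-high (0 of 13 higher). With replicate 3 of both fractions left out, which was decided after the data had been seen, the log2 fold change of Bcl2 was -2.63 (edgeR adjusted p = 0.0191). This does not remove the difference in granulocyte-monocyte markers. In replicates 1 and 2 they summed to 19.7 and 11.1 CPM in HS3A8-high and to 124.6 and 273 CPM in HS3A8-low. The part of these markers in the Bcl2 difference was not tested either.

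Bcl2l1 (ENSMUSG00000007659, chromosome 2 from 152780668 to 152831728) had 13.2, 13.8 and 15.8 CPM in HS3A8-high, 27.5, 21.0 and 20.7 CPM in HS3A8-low and 11.7, 18.7 and 16.7 CPM in the control. All HS3A8-low libraries were above all others, while HS3A8-high and control libraries overlapped. Its log2 fold change between the fractions was -0.70 (1.63-fold, standard error 0.188, 95% confidence interval -1.15 to -0.26) and missed the threshold (edgeR adjusted p = 0.0959, blocked 0.058). The DESeq2 test, in which 8.87% of 13806 genes were called, 6.67% higher in HS3A8-low and 2.19% higher in HS3A8-high, passed Bcl2l1 with an adjusted p of 0.0241, and over all alternatives the adjusted p ran from 0.0241 to 0.288.

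Mcl1 (ENSMUSG00000038612, chromosome 3 from 95658788 to 95663176), whose protein turns over fast, was the most abundant anti-apoptotic transcript per length. It had 198, 180.5 and 203 CPM in HS3A8-high, 229, 209 and 233 CPM in HS3A8-low and 235, 201 and 197 CPM in the control. HS3A8-high and HS3A8-low libraries did not overlap, and the control spanned both. The log2 fold change of -0.22 (95% confidence interval -0.43 to 0.00016) did not pass the threshold (edgeR adjusted p = 0.252, blocked 0.0763). Within the replicate numbers it was -0.21, -0.21 and -0.20, with an SD of 0.00467, the smallest spread of the 10 members between the fractions. This SD rests on 3 differences and was not set against counting error, so nothing is read from it.

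The make-up of the anti-apoptotic transcripts can be read per length of annotated exon. Bcl2 made up 1.15, 0.855 and 0.982% of the sum of Mcl1, Bcl2l1 and Bcl2 (CPM per kilobase) in HS3A8-high replicates 1 to 3, 6.27, 3.72 and 3.48% in HS3A8-low and 1.95, 2.44 and 1.94% in the control. The 3 groups thus kept the order they had for Bcl2 alone, and Mcl1 held 86.0 to 94.5% of the sum in every library. Per kilobase the ratio of Bcl2 to Bcl2l1 was 0.245, 0.16 and 0.180 in HS3A8-high libraries, 0.813, 0.554 and 0.581 in HS3A8-low and 0.555, 0.386 and 0.332 in the control. Control replicate 1 reached into the range of HS3A8-low for this ratio, through its low Bcl2l1. These shares and ratios use the same libraries as the levels and were given no test. They divide by all annotated exons of a gene (9.16 kilobases for Bcl2, 3.42 for Mcl1), whichever transcript is made. Libraries also differed in how their deviations correlated with the logarithm of exon length. The r ran from -0.41 in control replicate 1 to 0.298 in HS3A8-low replicate 1, which had the highest share of Bcl2. It was 0.255 in HS3A8-high replicate 1 and -0.154 in HS3A8-low replicate 3, where that share was 1.15 and 3.48%. The part of length in the shares was not tested.

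**Figure D2:**
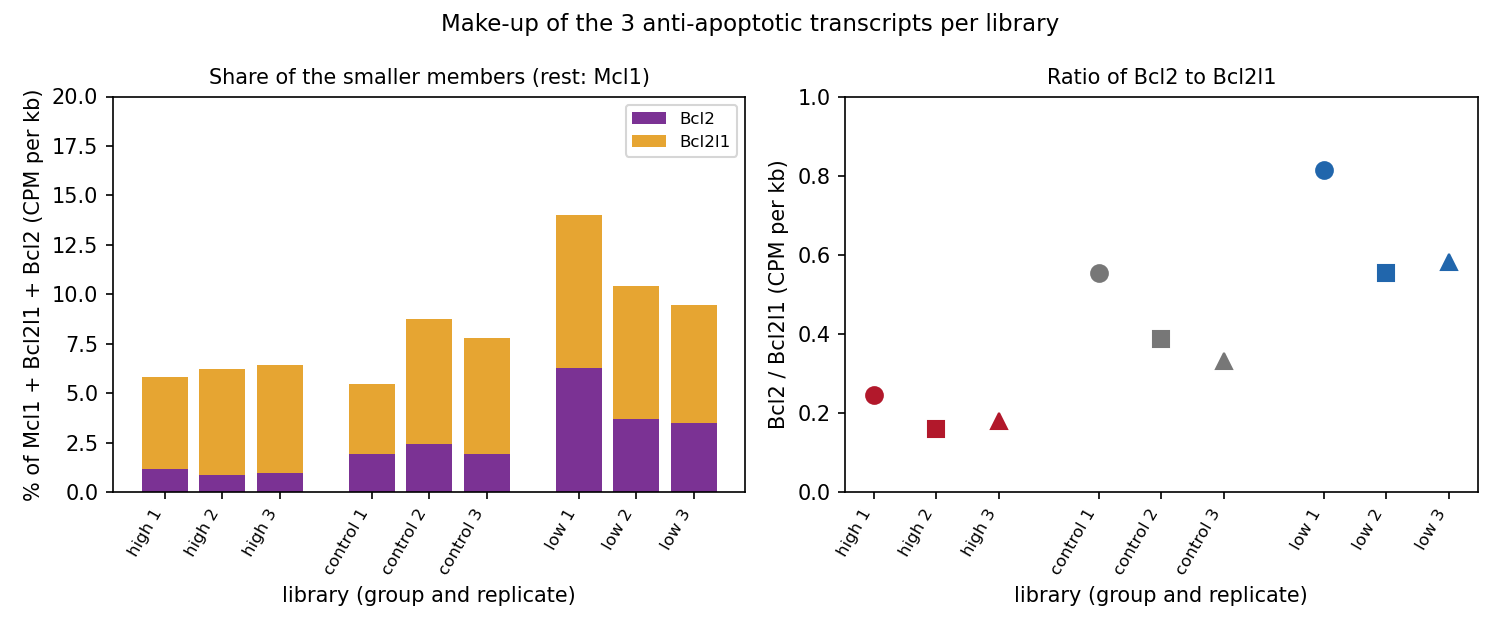
Left, share of Bcl2 and Bcl2l1 in the sum of Mcl1, Bcl2l1 and Bcl2 in each library, in percent of CPM per kilobase (the rest is Mcl1, and the axis ends at 20%). Right, ratio of Bcl2 to Bcl2l1 per kilobase, from 0.16 to 0.245 in HS3A8-high to 0.554 to 0.813 in HS3A8-low MEPs.

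The effectors differed in level more than between groups. Bax (ENSMUSG00000003873, chromosome 7 from 45461697 to 45466898), which moves from the cytosol into the mitochondrial membrane, had 113, 136 and 137 CPM in HS3A8-high, 97.0, 129 and 148 CPM in HS3A8-low and 192, 124 and 135 CPM in the control. The fractions overlapped, with a log2 fold change of 0.04 (95% confidence interval -0.33 to 0.41, edgeR adjusted p = 0.924) whose sign changed with the scaling. Bak1 (ENSMUSG00000057789, chromosome 17 from 27019810 to 27029009), the effector that resides in that membrane, had 4.97, 4.64 and 3.18 CPM in HS3A8-high, 3.58, 2.88 and 3.48 CPM in HS3A8-low and 2.52, 2.94 and 2.79 CPM in the control. HS3A8-high replicates 1 and 2 were highest and replicate 3 fell within HS3A8-low, so that the groups overlapped. The log2 fold change of Bak1 was 0.35 (95% confidence interval -0.37 to 1.08, edgeR adjusted p = 0.588). Per kilobase Bax was 34.8 to 116 times as abundant as Bak1 across the 9 libraries. Exons of Gm45808 on the same strand overlap 12.2% of the Bax exons and exons of Ggnbp1 on the opposite strand overlap 25.5% of the Bak1 exons, so part of these counts may belong to the neighbour.

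Among the BH3-only genes, none passed the edgeR threshold between the fractions. Bbc3 (ENSMUSG00000002083, chromosome 7 from 16308393 to 16318205), which encodes PUMA, a p53 target, had 8.64, 12.2 and 7.95 CPM in HS3A8-high, 20.4, 16.5 and 14.5 CPM in HS3A8-low and 7.56, 13.3 and 10.8 CPM in the control. All HS3A8-low libraries were above the other 6, which overlapped. The log2 fold change of Bbc3 was -0.85 (1.80-fold, standard error 0.245, 95% confidence interval -1.43 to -0.27), with an edgeR adjusted p of 0.114 and a blocked one of 0.0531. DESeq2 passed it with an adjusted p of 0.035, and over all alternatives the adjusted p ran from 0.035 to 0.305.

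Pmaip1 (ENSMUSG00000024521), which encodes NOXA, a partner of MCL1, was the least abundant member. It had 0.249, 0.076 and 1.46 CPM in HS3A8-high, 0.823, 2.88 and 3.82 CPM in HS3A8-low and 1.62, 0.574 and 0.294 CPM in the control, or 1 to 45 counts. Replicate 3 was the highest in both fractions, where granulocyte-monocyte markers were high too, and the groups overlapped. Its log2 fold change between the fractions was -2.05 with a 95% confidence interval of -4.39 to 0.30 (edgeR adjusted p = 0.317), and -3.35 (0.106) without replicate 3 of both. The interval for Pmaip1 is thus wide, and the part of depth or of replicate 3 in it was not tested.

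Bcl2l11 (ENSMUSG00000027381, chromosome 2 from 128126038 to 128162547), which encodes BIM, the BH3-only protein induced by cytokine loss, had 35.0, 36.6 and 33.9 CPM in HS3A8-high, 34.7, 31.3 and 29.5 CPM in HS3A8-low and 11.2, 35.1 and 35.6 CPM in the control. The 6 sorted libraries lay close together and control replicate 1 far below all of them. The log2 fold change of Bcl2l11 was 0.13 (95% confidence interval -0.16 to 0.42, edgeR adjusted p = 0.612). Bid (ENSMUSG00000004446, chromosome 6 from 120891930 to 120916853), which caspase-8 cleaves to link death receptors to mitochondria, had 149, 150.5 and 159 CPM in HS3A8-high, 123, 137 and 159 CPM in HS3A8-low and 141, 134 and 142 CPM in the control. HS3A8-low replicate 3 was as high as any HS3A8-high library and the fractions overlapped (log2 fold change 0.12, 95% confidence interval -0.13 to 0.37, edgeR adjusted p = 0.598). Bad (ENSMUSG00000024959, chromosome 19 from 6941861 to 6951899), which survival kinases inactivate, had 26.2, 37.4 and 32.9 CPM in HS3A8-high, 29.2, 37.5 and 38.9 CPM in HS3A8-low and 69.2, 34.3 and 37.9 CPM in the control. The fractions overlapped, with a log2 fold change of -0.14 (95% confidence interval -0.55 to 0.27, edgeR adjusted p = 0.71), and control replicate 1 was the highest library. Exons of Bcl2l13 overlap 17.7% of those of Bid, and exons of Gpr137 overlap 20.5% of those of Bad, on the opposite strands.

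Counted over the family, 4 of 10 members had HS3A8-high and HS3A8-low values that did not overlap (Bcl2, Bcl2l1, Mcl1 and Bbc3, all higher in HS3A8-low), where 27.8% of all genes tested did not overlap, 15.7% higher in HS3A8-low and 12.1% higher in HS3A8-high. The count of 4 in 10 lies above this background by a few genes at most, and nothing is read from it. The median log2 fold change was -0.18 over the 10 members and -0.03 over all genes tested. In HS3A8-high 6 members were lower, as were 6292 of all 11791 genes tested, so nothing is read from that count. By role, all 3 anti-apoptotic genes and 3 of 5 BH3-only genes were lower in HS3A8-high and both effectors higher, although Bax turned lower when scaled by library totals. DESeq2 called 3 members, Bcl2, Bcl2l1 and Bbc3, all higher in HS3A8-low, where it called 6.67% of all genes in that direction and 8.87% in either.

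**Figure D3:**
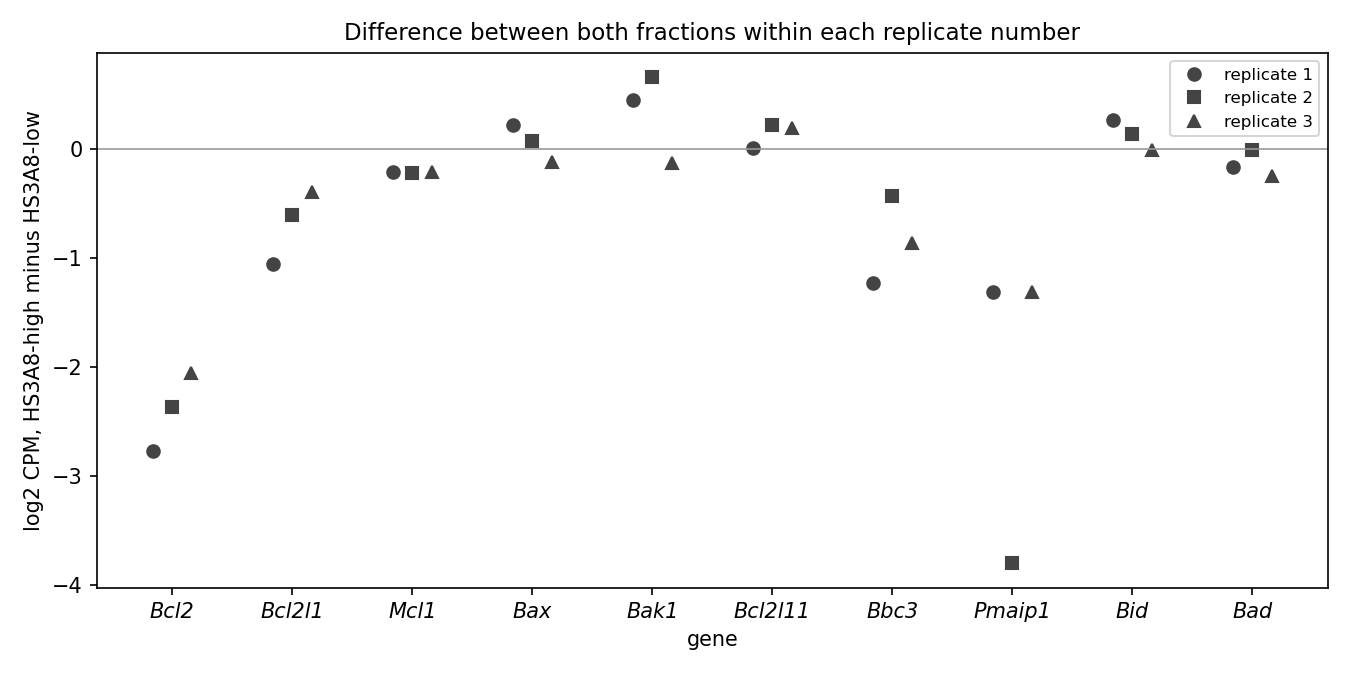
Difference in log2 CPM (prior count of 2) between HS3A8-high and HS3A8-low within each replicate number, for each of the 10 genes. Bcl2 lies from -2.76 to -2.05 and Mcl1 from -0.21 to -0.20, while the points of Bax, Bak1 and Bid lie on both sides of 0.

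Against the MPB49 control none of the members passed the edgeR threshold in either fraction. For HS3A8-high, 9 members were tested, Pmaip1 falling below the count filter, and 0 were called, where 0.0174% of 11486 genes were called. At an unadjusted p under 0.05 there was 1 member, among 562 of all genes tested, namely Bcl2, which was 2.33-fold lower in HS3A8-high (log2 fold change -1.22, standard error 0.257, 95% confidence interval -1.82 to -0.61, edgeR adjusted p = 0.382). DESeq2, with 1.06% of 13517 genes called, called Bcl2 alone among the members (adjusted p = 0.0113). Values did not overlap for 3 of the 9, namely Bcl2, which was lower in HS3A8-high, and Bak1 and Bid, which were higher, against 14% of all genes tested (7.19% lower and 6.77% higher). Bak1 had a log2 fold change of 0.62 (95% confidence interval -0.18 to 1.43, edgeR adjusted p = 0.733) and Bid one of 0.13 (95% confidence interval -0.16 to 0.41, edgeR adjusted p = 0.734).

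For HS3A8-low, 10 members were tested and 0 called by edgeR, where 0% of 11878 genes were called, and DESeq2 called 0 members and 0.672% of genes (0.657% higher and 0.0144% lower in HS3A8-low). Before adjustment 2 members had p under 0.05, Bcl2 and Bbc3, as had 673 of all genes tested. Bcl2 was 2.33-fold higher in HS3A8-low than in the control, a log2 fold change of 1.22 (standard error 0.309, 95% confidence interval 0.50 to 1.95, edgeR adjusted p = 0.664). Bbc3 had a log2 fold change of 0.67 (95% confidence interval 0.02 to 1.31, edgeR adjusted p = 0.84) and Bcl2l1 one of 0.52 (95% confidence interval -0.05 to 1.09, edgeR adjusted p = 0.84). These 3 genes lay above the control without overlap, where 12.8% of all genes tested did not overlap, 7.91% higher and 4.92% lower in HS3A8-low. Both comparisons use the same 3 control libraries.

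**Figure D4:**
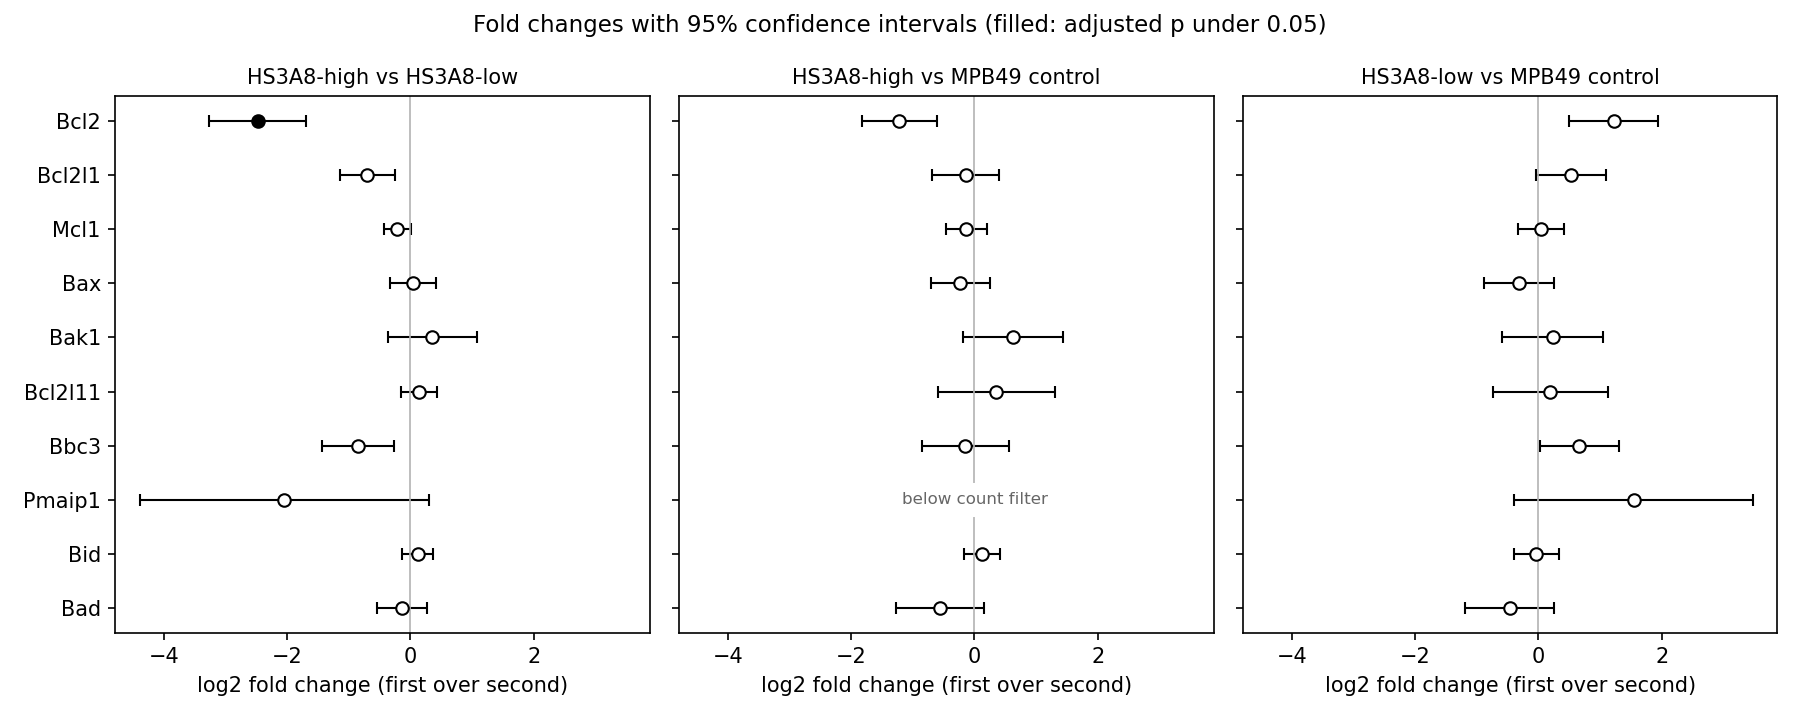
Log2 fold change of each gene in the 3 comparisons, first group over second, with 95% confidence intervals of the edgeR fit. Filled points mark an adjusted p under 0.05, which Bcl2 reached between HS3A8-high and HS3A8-low (-2.48) and no gene reached against the control.

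Control replicate 1 decided several of these values. Its log2 CPM lay below the mean of control replicates 2 and 3 by 1.65 for Bcl2l11, 0.66 for Bbc3 and 0.59 for Bcl2l1. It lay above that mean by 0.94 for Bad, 0.57 for Bax and 0.04 for Bcl2. For Pmaip1 it lay 1.66 above, at 4 to 18 counts in the control libraries. Across 12055 genes the deviation of this library from the mean of all 9 correlated with the logarithm of exon length (r = -0.41), against -0.154 to 0.298 in the other 8, and genes are not independent replicates. Bcl2l11 is a long transcript (8.03 kilobases of exons) and Bax and Bad are short (1.58 and 2.56), whereas Bcl2 is the longest of the 10 (9.16) and Bbc3 one of the shortest (2.12) but low in that library. Without control replicate 1 the log2 fold change of Bcl2l11 was -0.0017 for HS3A8-high and -0.17 for HS3A8-low against the control, from 0.36 and 0.20 with it. For Bcl2 it was -1.20 and 1.25 (edgeR adjusted p = 0.357 and 0.422). Leaving it out took Bad from -0.56 to -0.16 for HS3A8-high, and from -0.47 to -0.06 for HS3A8-low. The part of length in these values was not tested.

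**Figure D5:**
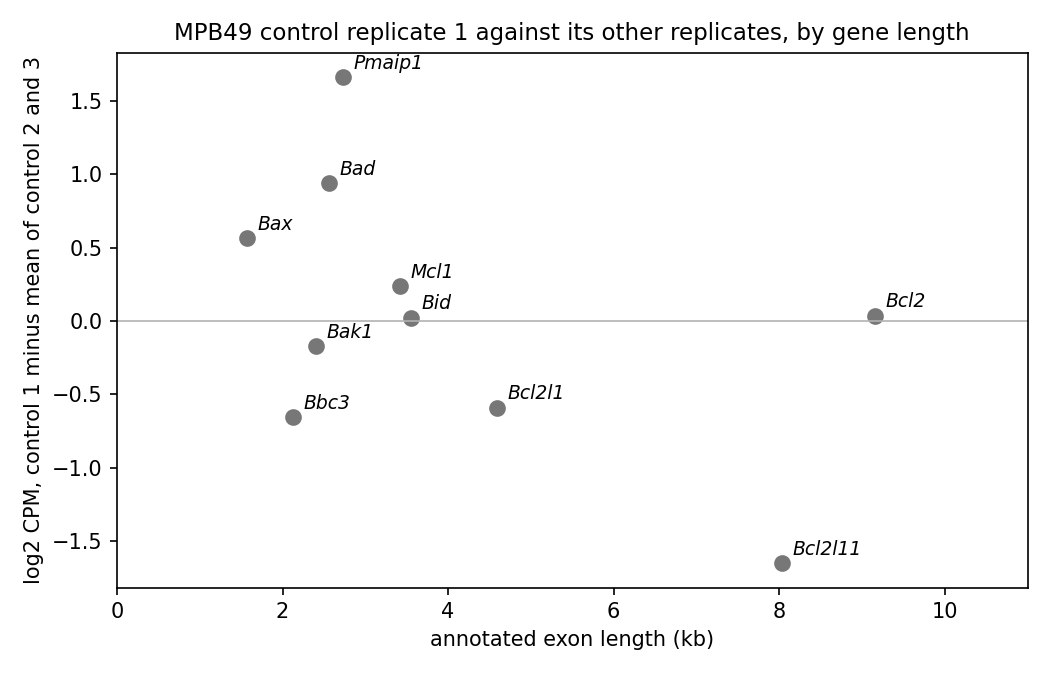
Log2 CPM of control replicate 1 minus the mean of control replicates 2 and 3, against annotated exon length in kilobases, with 1 point for each of the 10 genes. Bcl2l11 lies at -1.65 with 8.03 kilobases and Bad at 0.94 with 2.56, while Bcl2, the longest, lies at 0.04.

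Levels of different members were set side by side in CPM per kilobase of annotated exons. Averaged over the 9 libraries the order was Bax (85.4), Mcl1 (61.3), Bid (40.5), Bad (14.9), Bbc3 (5.86), Bcl2l11 (3.91), Bcl2l1 (3.86), Bcl2 (1.78), Bak1 (1.43) and Pmaip1 (0.48). The ranges over the 9 libraries of Bax (61.5 to 122) and Mcl1 (52.8 to 68.6) overlapped, those of Mcl1, Bid (34.7 to 44.9), Bad (10.2 to 27.1) and Bbc3 (3.56 to 9.60) did not, and from Bbc3 down each range overlapped the next. HS3A8-low replicate 1 was the library in which Mcl1 exceeded Bax. The place of Bcl2 in this order changed with the group. At 0.603 ± 0.113 CPM per kilobase (SD, n = 3) it was below Bak1 (1.77 ± 0.395) in every HS3A8-high library, and at 3.35 ± 1.33 it was above Bak1 (1.38 ± 0.159) in every HS3A8-low library.

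Profiles over the 9 libraries were compared by Pearson's r of log2 CPM, as a description, since the points share groups and libraries. Among members the pairs with the highest r were Bax and Bad (0.906), Bcl2l1 and Bbc3 (0.894) and Bcl2 and Bcl2l1 (0.807), and the lowest was Bcl2l11 with Bad (-0.89). Control replicate 1 is an extreme point for Bax, Bad and Bcl2l11. Out of 9346 genes that averaged 5 CPM or more, the 5 most like Bcl2 were Atp13a2 (0.985), Scin (0.974), Lxn (0.967), Rab27b (0.966) and Tcf7 (0.965). Group means, in the order HS3A8-high, HS3A8-low, control, were 8.08, 50.6 and 19.7 CPM for Scin, which encodes an actin-severing protein, and 0.696, 59.9 and 12.1 CPM for Tcf7, a transcription factor of T cell and stem cell programs that is in the T and NK list above. For Atp13a2 they were 124, 197 and 154 CPM, a smaller change, since r takes no account of the size of a change. Most like Bcl2l1 were Vgll4 (0.972), Sept9 (0.966), Fam117a (0.965), Klhl6 (0.963) and Cbfb (0.961). Cbfb, the partner subunit of RUNX factors, had means of 37.3, 79.8 and 45.4 CPM.

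The other genes of the pathway were read from 5 lists. Between HS3A8-high and HS3A8-low MEPs 1 of 60 tested genes of these lists passed the edgeR threshold (1.67%, against 3.82% of all genes), and 7 passed with the replicate block (11.7%, against 11.6%). The lists thus held no larger share of calls than all genes by edgeR without the block and about the same share with it. Of 15 other BCL2 family genes 8 were tested, with a median log2 fold change of -0.49, and the block called 1, lower in HS3A8-high. This was Bnip3l, which encodes NIX, the receptor that clears mitochondria from maturing red cells. It had 139, 160.4 and 143 CPM in HS3A8-high and 182, 199 and 230 CPM in HS3A8-low, without overlap (blocked log2 fold change -0.47, blocked edgeR adjusted p = 0.0316, 0.061 without the block). Bcl2l13, which had the highest CPM of this list but less than Bnip3l per kilobase, had a log2 fold change of 0.22 (edgeR adjusted p = 0.307).

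All 17 genes of the apoptosome, caspases and mitochondrial death factors were tested, with a median of 0.10. Of these, 13 were higher in HS3A8-high, as were 5499 of all 11791 genes tested. The block called 1 in each direction, 2 of 17, near the 11.6% of all genes. Vdac2, an outer membrane channel that binds BAK, had 385, 419 and 396 CPM in HS3A8-high and 318, 340 and 341 CPM in HS3A8-low (blocked log2 fold change 0.25, blocked edgeR adjusted p = 0.0482, 0.0969 without the block). Casp8, the initiator caspase of death receptors, had 52.9, 56.1 and 64.4 CPM in HS3A8-high and 70.7, 71.7 and 77.2 CPM in HS3A8-low (blocked log2 fold change -0.35, blocked edgeR adjusted p = 0.0492, 0.127 without). The fractions did not overlap in either gene.

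Of 7 inhibitor of apoptosis genes 6 were tested, with a median of 0.02, and the block called Birc3 alone. Birc3, a ubiquitin ligase of NF-κB signalling, had 10.6, 7.68 and 7.36 CPM in HS3A8-high and 15.7, 15.3 and 15.1 CPM in HS3A8-low, without overlap (blocked log2 fold change -0.87, blocked edgeR adjusted p = 0.041, 0.0876 without). The highest CPM of this list were those of Birc5, which encodes survivin (log2 fold change 0.16, edgeR adjusted p = 0.607), and Birc2 (-0.25, edgeR adjusted p = 0.354). Of 10 death receptor genes 7 were tested, with a median of -0.11, and the block called 1, near the same background, which was Tnfrsf1a, the TNF receptor 1 gene. It had 10.1, 7.45 and 19.8 CPM in HS3A8-high and 23.7, 20.1 and 53.2 CPM in HS3A8-low, just without overlap, and was highest in replicate 3 of both fractions, like the granulocyte-monocyte markers (blocked log2 fold change -1.37, blocked edgeR adjusted p = 0.00594, 0.18 without). Tradd and Ripk1, the highest of this list in CPM, which takes no account of length, had log2 fold changes of -0.11 and 0.19 (edgeR adjusted p = 0.742 and 0.476).

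Of 24 upstream regulators 22 were tested, with a median of 0.04. Genes called with the block included Pim2, a kinase that inactivates BAD, with 8.45, 8.97 and 10.5 CPM in HS3A8-high and 15.0, 17.2 and 17.2 CPM in HS3A8-low (blocked log2 fold change -0.83, blocked edgeR adjusted p = 0.0322, 0.0569 without). Kit, the receptor of stem cell factor, had a log2 fold change of 0.22 (edgeR adjusted p = 0.706) and Ywhaz, a 14-3-3 protein of the family that sequesters phosphorylated BAD, one of -0.01 (edgeR adjusted p = 0.96). Against the control, edgeR called 0 genes of the 5 lists in either fraction, and the DESeq2 calls included Tnfrsf1a, higher in HS3A8-low (adjusted p = 0.0403).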

How the data were processed

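MEPs were measured by bulk RNA-seq in 9 libraries. The authors had low-input libraries sequenced, mapped the reads to mm10 with STAR 2.5 and, per the submitters' processing notes, used HTSeq 0.6.1. The deposited values are raw counts per gene, not normalized, with no pooling of replicates. The annotation release and strand setting are not given in the sources used here. Identifiers were joined to GENCODE M21 on GRCm38, which matched 34490 of 35275. Members and lists were chosen with earlier results of these data known. From the lists, genes past the threshold with or without the block and the 2 of each with the highest mean CPM were named, except for some that are not reported here.

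The 3 comparisons were fitted separately in R 4.3.3 with edgeR 4.0.16 (TMM, filterByExpr, quasi-likelihood test, Benjamini-Hochberg, adjusted p under 0.05), each on its 2 groups. DESeq2 1.42.0 was an alternative. The code was tested on simulated counts. Replicate numbers were checked for pairing over 12108 genes. For both fractions, same-numbered libraries had correlated deviations from their group means (r = 0.492, 0.325 and 0.509), against -0.469 to 0.122 across numbers, and were taken as pairs in the block. Deviations within a group sum to 0, so r across numbers is not independent of r at the same number. Such r cannot tell a shared mouse from shared processing of the libraries. The study's heatmap legend names 3 individual mice, and nothing says whether a mouse gave both fractions. P-values otherwise measure the spread between these libraries, which may be technical. Totals of 11781637 to 15850037 counts set the precision of low genes.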

Additional observations from a re-analysis of the deposited data

How the results depend on the processing

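Between HS3A8-high and HS3A8-low MEPs Bcl2 kept its direction in every alternative run, with log2 fold changes of -2.63 to -2.07 when libraries were left out. The number of members called by edgeR was 1, 3 with the DESeq2 test and 0 to 1 with libraries left out. The number of all genes called was 451, against 1224 with DESeq2, 1367 with the replicate block and 0 to 748 with libraries left out. The 0 came without HS3A8-low replicate 2, with 1900 genes at an unadjusted p under 0.05, and 748 without replicate 3 of both fractions, which was chosen after seeing the data. Of the genes called, 16% were higher in HS3A8-high, 28.7% with the block, 6.31% with library totals and 2.46% with all 9 libraries in 1 fit. Of the 5 apoptosis lists 1 gene was called, 2 with library totals, 8 with DESeq2, 7 with the block and 0 to 2 with libraries left out.

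For HS3A8-high against the control, 2 genes were called, 143 with DESeq2, 9 without a count filter, 32 with all 9 libraries, 0 with the replicate block and 0 to 5 with 1 library left out. DESeq2 called 1 member, and 1 gene of the lists was called by DESeq2, without a count filter and with all 9 libraries. For HS3A8-low against the control, 0 genes were called, 93 with DESeq2, which called 1 gene of the lists. With the control the replicate numbers did not mark pairs (r between same-numbered libraries from -0.346 to 0.0318), and the block called no member in either comparison.

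Signs turned for 6 of the members tested, none of them past the threshold in that comparison, and Pmaip1, below the count filter for HS3A8-high against the control, ran there from -0.86 to 0.0155 with 1 library left out where it could be fitted. Between the fractions Bax was -0.00483 with library totals and -0.0882 (without HS3A8-low replicate 1) to 0.183 with 1 library left out. For HS3A8-high against the control and 1 library left out, Bcl2l1 ran from -0.303 to 0.00287 (without control replicate 2), Bbc3 from -0.360 to 0.0596 (without control replicate 2) and Bcl2l11 from -0.00169 (without control replicate 1) to 0.595. For HS3A8-low against the control, Mcl1 ran from -0.0110 (without control replicate 3) to 0.150, Bcl2l11 from -0.168 (without control replicate 1) to 0.424 and Bid from -0.127 to 0.0452 (without HS3A8-low replicate 1). Bid was 0.0861 there with library totals, which moved the median of all genes to 0.11. The cause of these turns was not tested. Pmaip1 had the lowest counts of the members, 1 to 45 per library.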
